A study of Sus scrofa with 16 samples.

Results

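The cytosolic ribosomal protein genes encode the proteins that, together with ribosomal RNA, form the small (40S) and large (60S) subunits of the ribosome that translates nuclear messages. They were found by gene symbol (RPL or RPS followed by a number, RPLP0 to RPLP2, and RPSA), and the S6 kinases, whose symbols begin in the same way, were left out. The rule found 62 genes among the 6765 genes that had a probe set with a single symbol, and these genes had 94 of the 23999 probe sets tested. Of the 62 genes, 24 encode proteins of the small subunit, 34 encode proteins of the large subunit and 4 encode paralogs of a core protein (RPL7L1, RPL22L1, RPL26L1 and RPS27L). Against the full complement of core proteins, 24 of 32 small subunit genes and 34 of 46 large subunit genes were measured. Where a gene had several probe sets (24 genes), the one with the highest mean over the arrays represented it, and the other 32 probe sets are described separately. By Entrez identifier, all 62 genes were found in RefSeq (pig assembly Sscrofa11.1), on 16 chromosomes.

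Expression was measured on Affymetrix porcine arrays in the left ventricle of 16 Yorkshire x Landrace pigs aged 2 to 3 months. The myocardial infarction group (MI) had 8 animals, 4 females and 4 neutered males, sampled 3 weeks after surgery. The sham-operated group (Sham) had 8 animals of the same breed and age, again 4 females and 4 neutered males, sampled at the same time. Each animal gave 1 array, and the labels name neither the region of the ventricle nor its distance from the infarct.

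Ribosomal proteins are needed in nearly equal amounts, and their messages share a 5′ terminal oligopyrimidine tract through which growth signalling, mainly mTOR, sets their translation. In heart muscle, the capacity to make protein is known to grow with the number of ribosomes during hypertrophy. Because much of this control acts on translation and on ribosomal RNA, the level of a ribosomal protein message does not by itself give the number of ribosomes.

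Some features of the arrays bear on what follows. The array labelled as female MI 7 had a signal of 9.51 (log2) for EIF1AY, a Y-linked gene, against 3.00 to 3.51 on the other 7 arrays labelled female and 9.40 to 9.96 on the 8 labelled male. The arrays also fell into a pair of sets by their poly-A spike-in signal relative to the hybridisation controls. This contrast averaged -4.57 ± 0.45 on 5 arrays, called set B here, and -1.88 ± 0.32 on 11 arrays, called set A (log2, SD). MI 7 and MI 8 belong to set B together with Sham 6, Sham 7 and Sham 8, and no label names these sets. The difference between 3′ and 5′ actin probe sets, a sign of RNA or labelling quality, was 1.42 ± 0.14 on the arrays of set B, 2.64 ± 0.29 on those of set A, and 2.39 ± 0.59 in MI animals and 2.12 ± 0.68 in Sham animals (log2, SD, n = 8 each). Results below are therefore also given within or without these arrays where that changes them.

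The ribosomal protein genes gave some of the brightest signals on the array. A mean signal above 12 (log2) was reached by 52 of the 62 genes, and only 1.31% of all probe sets (315) were that bright, of which 16.5% were these 52. The median signal of the 62 genes was 13.07, against 6.24 for all probe sets. The highest means belonged to RPS29, a zinc-binding protein of the small subunit (13.86), RPLP0, the base of the stalk of the large subunit (13.79), and RPS20, a protein of the small subunit head (13.76). A further 7 genes lay between 8 and 12: RPL3, RPLP2, RPL37 and the 4 paralogs. The remaining 3 genes were not above the highest value of the 23 control probe sets that have no target in the sample (4.99): RPL30 averaged 3.77, RPS15A 4.06 and RPL26 4.73. A signal depends on the probe set as well as on the message, so these values set no order of amount between genes. The highest value in the whole table was 14.9.

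RPL23 was the only ribosomal protein gene that passed the test between MI and Sham animals. RPL23 encodes a protein of the large subunit that, in human cells, also binds MDM2, the ubiquitin ligase of p53. Its probe set had 13.09, 13.17 and 13.22 (lowest, median and highest log2 signal) in MI animals and 12.96, 13.01 and 13.11 in Sham animals. All 8 MI animals lay above the Sham mean, and the groups overlapped through 1 animal, Sham 1, which lay above MI 5 and MI 6. RPL23 averaged 13.16 ± 0.05 in MI animals and 13.01 ± 0.05 in Sham animals (SD, n = 8 each), a difference of 0.15 (SE 0.05, 95% interval 0.05 to 0.25, adjusted p = 0.0472, limma with Benjamini-Hochberg adjustment over all probe sets). The gene lies on chromosome 12 at 23279965 to 23285538 of Sscrofa11.1. The plain difference of means was 0.14 within set A and 0.17 within set B, and the fitted one 0.17 in females and 0.13 in males. The call was marginal: it held when Sham 1 was left out (adjusted p = 0.0429) and was lost when any other single animal was left out, with adjusted p from 0.0521 to 0.0925 and differences from 0.14 to 0.16. It was also lost on set A alone (fitted difference 0.16, adjusted p = 0.129), without MI 7 with the set as a block (adjusted p = 0.0771) and with quantile normalization (adjusted p = 0.0575), and it held with the set as a block on all arrays (adjusted p = 0.0450). The other 2 probe sets of RPL23, with mean signals of 8.53 and 8.50, gave differences of 0.12 (adjusted p = 0.651) and -0.25 (adjusted p = 0.271).

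The count of 1 gene in 62 was 1.61%, where 10.5% of all probe sets passed in either direction (5.39% higher and 5.14% lower in MI). At an unadjusted p under 0.05, again only RPL23 of the 62 genes stood out (1.61%), against 23.6% of all probe sets. None of the 62 genes had groups without overlap, against 2.96% of all probe sets. Of the 62 differences, 40 were positive and 22 were negative, their median was 0.024 and the median of their sizes was 0.043. Over all probe sets the median difference was -0.00035 and the median size 0.114.

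Bright probe sets differed less between the groups in general. Among the 52 ribosomal protein genes with a mean above 12 the median size of the difference was 0.037 and 1 passed, against 0.047 and 1 of 263 (0.38%) for the other probe sets above 12. The 263 include 4 further probe sets of the ribosomal protein genes. The spread within a group and sex was smaller in the ribosomal protein genes above 12, with a median SD of 0.088, than in the other bright probe sets, with 0.124, and in all probe sets, with 0.193. The low count in these genes is thus near that of other probe sets of the same brightness.

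The intervals say how large a difference in log2 signal these arrays could have missed. For 54 of the 62 genes the 95% interval of the difference lay within 1.25-fold in either direction (0.32 on the log2 scale), and this held for 51 of the 52 genes above 12. Intervals that narrow were held by 220 of the 263 other probe sets above 12 (83.7%) and by 45.1% of all probe sets. Of the 54 genes, RPL26 and RPS15A were not above background, so their intervals bound no change in message. For 61 of 62 genes the interval included 0, and its median half-width was 0.125. A change in signal larger than 1.25-fold was thus outside the interval for most of these genes. How closely the signal follows the amount of message in probe sets this bright was not tested.

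**Figure D1:**
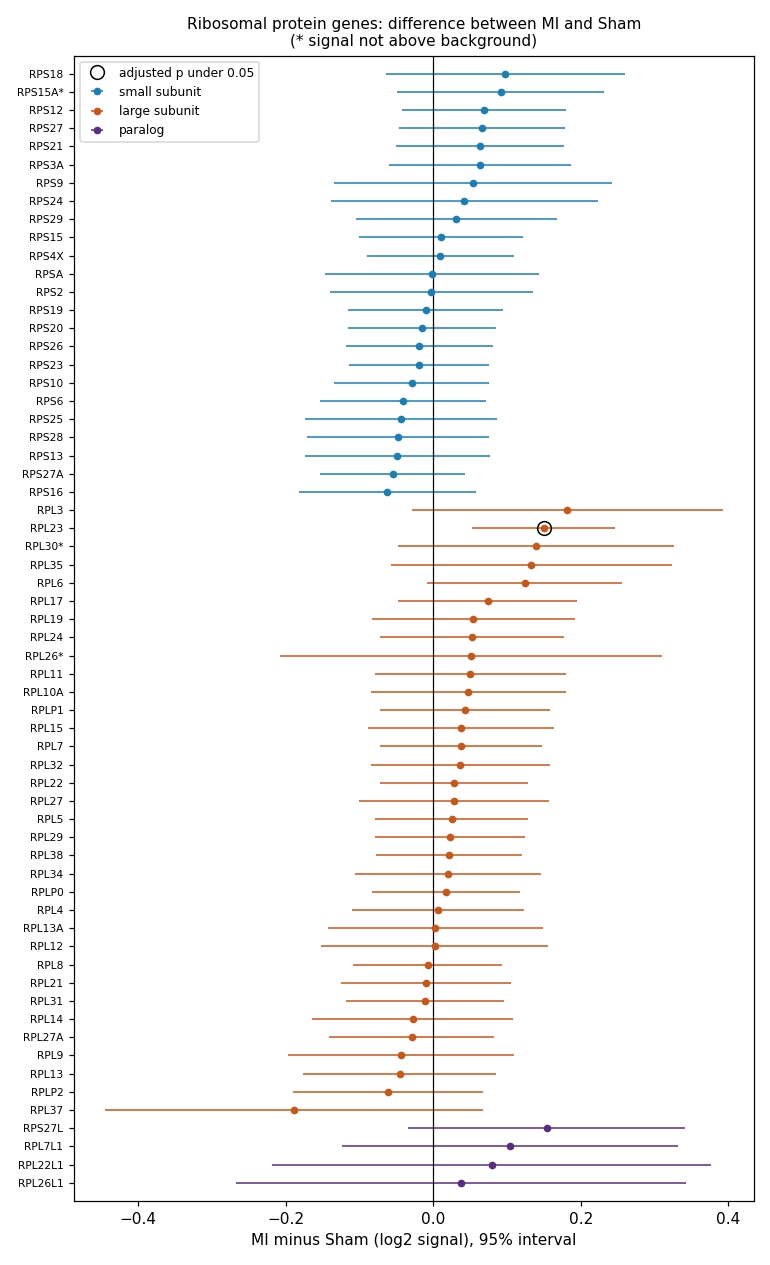
Difference in log2 signal between MI and Sham animals (horizontal axis) for the 62 ribosomal protein genes, grouped from top to bottom into small subunit, large subunit and paralogs, with 95% intervals. The interval of RPL23 (ringed, 0.05 to 0.25) excludes 0, the other 61 include it, and the widest intervals belong to dimmer genes such as RPL37 and RPL26L1; stars mark genes not above background.

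Among the 24 small subunit genes none passed, none had an unadjusted p under 0.05, and their differences ran from -0.06 to 0.10 with a median of -0.0021 (11 positive, 13 negative). RPS12, a small subunit protein, had the lowest p of those above background. Its signal was 13.41, 13.44 and 13.55 (lowest, median, highest) in MI animals and 13.24, 13.41 and 13.50 in Sham animals. All 8 MI animals lay above the Sham mean, but the groups overlapped over most of their range and the difference was 0.07 (SE 0.05, adjusted p = 0.481). RPS6, the substrate of the S6 kinases, had 13.14, 13.27 and 13.30 in MI animals and 13.19, 13.28 and 13.43 in Sham animals, with a difference of -0.04 (adjusted p = 0.706). RPSA, which is also known as the laminin receptor precursor, had nearly equal means of 12.91 ± 0.09 in MI animals and 12.91 ± 0.14 in Sham animals (SD, n = 8 each), with a 95% interval of the difference from -0.15 to 0.14. RPS4X, the X-linked small subunit gene, had 12.73, 12.78 and 12.85 in MI animals and 12.70, 12.74 and 12.87 in Sham animals, with an interval from -0.09 to 0.11. RPS27A, made as a fusion with ubiquitin, had 13.51, 13.56 and 13.65 in MI animals and 13.53, 13.61 and 13.72 in Sham animals; 1 of 8 MI animals lay above the Sham mean, and the difference of -0.05 did not pass (SE 0.05, adjusted p = 0.534). RPS16 had the most negative difference of the small subunit genes, -0.06 (adjusted p = 0.568), and RPS18 the most positive, 0.10 (adjusted p = 0.490).

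Among the 34 large subunit genes RPL23 passed, 25 differences were positive and 9 negative, and they ran from -0.19 to 0.18 with a median of 0.027. RPL6, a large subunit protein, came next to RPL23 by p. Its signal was 13.34, 13.46 and 13.53 in MI animals and 13.11, 13.37 and 13.44 in Sham animals. All 8 MI animals lay above the Sham mean, the lowest MI animal lay within the Sham range, and the difference of 0.12 did not pass (SE 0.06, adjusted p = 0.243). RPL3, a protein close to the peptidyl transferase centre, had 11.57, 12.01 and 12.31 in MI animals and 11.60, 11.77 and 12.03 in Sham animals. The lowest of all 16 values belonged to an MI animal, MI 7, and the difference of 0.18 did not pass (SE 0.10, adjusted p = 0.293). RPL3 differed by 0.21 in set A and by 0.0033 in set B.

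RPL35, which lies near the exit of the peptide tunnel, had 12.94, 13.28 and 13.41 in MI animals and 12.71, 13.13 and 13.26 in Sham animals, a difference of 0.13 (SE 0.09, adjusted p = 0.413). RPL17, another protein near the tunnel exit, had 13.52, 13.69 and 13.77 in MI animals and 13.45, 13.59 and 13.71 in Sham animals, a difference of 0.07 (adjusted p = 0.490). For both genes the groups overlapped over most of their range. RPL37, a zinc-binding protein, had the most negative difference of all 62 genes, -0.19 (SE 0.12, adjusted p = 0.382). Its signal was 8.29, 8.48 and 8.70 in MI animals and 7.92, 8.69 and 9.44 in Sham animals, and both the lowest (Sham 6) and the highest (Sham 7) of the 16 values belonged to Sham animals of set B. RPL30 had 3.68, 3.72 and 4.35 in MI animals and 3.59, 3.69 and 3.84 in Sham animals, and RPS15A of the small subunit had 3.91, 4.14 and 4.26 in MI animals and 3.88, 4.03 and 4.12 in Sham animals. Both were below background in every animal, as was RPL26 in both group means (4.76 in MI, 4.71 in Sham), and no fold is given for these 3 genes.

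The stalk that recruits elongation factors to the large subunit showed no difference that passed (4 genes, limma, none with an unadjusted p under 0.05). RPLP0 had 13.72, 13.81 and 13.83 in MI animals and 13.69, 13.81 and 13.86 in Sham animals. Of the acidic stalk proteins, RPLP1 averaged 12.46 ± 0.10 in MI animals and 12.42 ± 0.09 in Sham animals, and RPLP2 averaged 11.80 ± 0.12 in MI animals and 11.86 ± 0.07 in Sham animals (SD, n = 8 each). RPL12, at the base of the stalk, had an interval of the difference from -0.15 to 0.16. The differences in RPLP1 and RPLP2 ran in opposite directions, 0.04 and -0.06, and both intervals included 0.

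The 5S particle and MDM2-binding group of 4 genes (RPL5, RPL11, RPL23 and RPL26), known in human cells for linking defects of ribosome assembly to p53, held RPL23 and 3 genes that did not pass. RPL5 had 12.99, 13.05 and 13.12 in MI animals and 12.98, 13.01 and 13.16 in Sham animals, a difference of 0.025 (SE 0.05, adjusted p = 0.822). RPL11 had 13.40, 13.56 and 13.67 in MI animals and 13.34, 13.52 and 13.62 in Sham animals, a difference of 0.05 (SE 0.06, adjusted p = 0.687). Of 19 genes known for mutations in Diamond-Blackfan anaemia, an inherited failure of red cell production, 15 were measured and 13 of these were above background. None of the 15 passed or had an unadjusted p under 0.05 (limma), against 7.63% and 18.1% of all genes.

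The 4 paralogs all had positive differences, from 0.04 to 0.15, and none passed (limma, none with an unadjusted p under 0.05). RPS27L, a paralog of RPS27 that p53 induces in human cells, had 10.71, 10.97 and 11.11 in MI animals and 10.48, 10.82 and 11.03 in Sham animals. Of the 8 MI animals, 6 lay above the Sham mean, and the difference was 0.15 (SE 0.09, adjusted p = 0.319). RPL7L1 averaged 9.99 ± 0.22 in MI animals and 9.89 ± 0.21 in Sham animals, and RPL22L1 averaged 10.39 ± 0.25 in MI animals and 10.31 ± 0.32 in Sham animals. RPL26L1 averaged 9.33 ± 0.33 in MI animals and 9.29 ± 0.27 in Sham animals (SD, n = 8 each). Within a group and sex, the spread of RPL7L1, RPL22L1 and RPL26L1 (SD 0.22, 0.30 and 0.31) was wider than that of any core gene above 12, and the intervals of the 4 paralogs lay between -0.27 and 0.38.

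**Figure D2:**
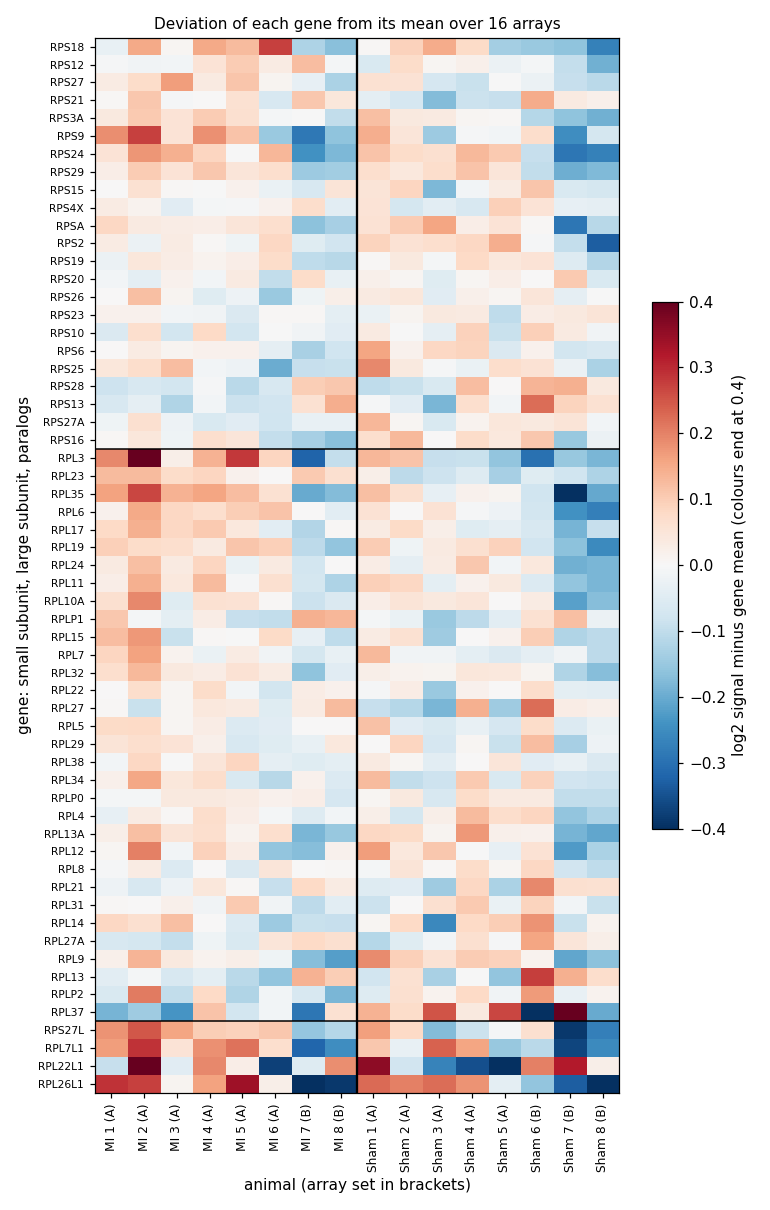
Deviation of each of the 59 ribosomal protein genes above background (rows, by subunit and then by difference) from its own mean over 16 arrays, in log2 units, for MI animals (left of the vertical line) and Sham animals (right of it), with the array set in brackets. No block of colour separates MI from Sham animals, whereas MI 7, MI 8, Sham 7 and Sham 8, all of set B, are lower in most rows, with a few rows such as RPL13 and RPS28 in the opposite direction; values beyond 0.4 take the end colour.

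The effect of MI did not differ detectably between the sexes in any of the 62 genes. Within females and within males alone, 0 of 62 genes passed, against 2.85% and 3.4% of all probe sets. At an unadjusted p under 0.05 the counts were 2 and 1 of the 62, and the share of all probe sets at that threshold is not given here. For the interaction, the female minus the male difference, 0 of 62 passed and so did 0% of all probe sets (limma). At an unadjusted p under 0.05 the interaction gave RPL37 and RPL13, 2 of the 62, against 5.68% of all probe sets. RPL37 differed by -0.52 in females and by 0.14 in males (interaction -0.65, SE 0.24, adjusted p = 0.794), and the 2 extreme Sham values named above lie in different sexes. Without Sham 7 the interaction of RPL37 was -0.50, and without Sham 6 it was -0.50 as well. RPL13, a large subunit protein, differed by 0.10 in females and by -0.19 in males (interaction 0.30, SE 0.12, adjusted p = 0.794). Without MI 7, the array whose EIF1AY signal does not match its label, the interaction was -0.60 for RPL37 and 0.27 for RPL13, both with an adjusted p of 0.979. RPL26 and RPS13 had the next lowest p for the interaction, and of these only RPS13, a small subunit protein, was above background (0.20, SE 0.12, adjusted p = 0.794). The array sets were not spread evenly over sex and condition. Set B held MI 7, MI 8 and Sham 7, labelled female, and Sham 6 and Sham 8, labelled male, but no MI male. The fitted set B minus set A differences were 0.18 for RPL13 and 0.15 for RPS13, and neither passed. How far the sets enter these interactions was not tested.

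Between females and males of both groups, 0 of 62 genes passed and none had an unadjusted p under 0.05 (limma), where 0.0583% and 3.11% of all probe sets did. The differences ran from -0.09 to 0.24 (female minus male), 46 of 62 were negative and the median was -0.017. The 4 genes with the lowest p were RPL37 (0.24), RPLP1 (0.07), RPL27 (-0.08) and RPS16 (-0.07), all with an adjusted p of 0.998. RPS4X, which lies on the X chromosome at 58149302 to 58155179, did not pass either. Without MI 7, again none of the 62 had an unadjusted p under 0.05.

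These genes differed more between the array sets than between MI and Sham animals. The median deviation of the 59 genes above background from their own means was 0.0086 ± 0.042 in MI animals and -0.0068 ± 0.058 in Sham animals (SD, n = 8 each). It ran from -0.053 to 0.072 in MI animals and from -0.102 to 0.042 in Sham animals, so that the groups overlapped in part. By set, it was -0.049 ± 0.057 on the 5 arrays of set B and 0.023 ± 0.025 on the 11 arrays of set A (SD). Sham 6, of set B, stood apart from the rest of its set at 0.042, while MI 7, MI 8, Sham 7 and Sham 8 lay at -0.053, -0.041, -0.089 and -0.102. Within set A the MI arrays averaged 0.027 ± 0.028 (n = 6) and the Sham arrays 0.019 ± 0.025 (n = 5). Within set B the MI arrays lay at -0.053 and -0.041, and the Sham arrays ran from -0.102 to 0.042.

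Gene by gene, 46 of the 62 were lower and 16 higher on average in set B than in set A, with a median size of 0.115, and for 48 of the 62 the set difference was larger than the MI difference. Over all probe sets the median size between the sets was 0.142, and the set difference was the larger one in 56.8%. With the 4 groups of condition and sex in the fit, 15 of 62 genes (24.2%) passed for the set, all lower in set B, against 17.6% of all probe sets and 17.9% of the other probe sets above 12. This test was added after the values were seen. RPL26L1 had the largest fitted set difference, -0.58 (SE 0.09, adjusted p = 0.000472), and its signal ran from 8.75 to 9.15 in set B and from 9.27 to 9.65 in set A, without overlap. RPL7L1, RPL35 and RPS24, a small subunit protein, followed with -0.39, -0.34 and -0.33. RPL23 averaged 13.07 in set B and 13.10 in set A and did not pass for the set. RPL13 averaged 12.16 in set B and 11.95 in set A, higher in set B again without overlap, and its fitted difference did not pass.

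**Figure D3:**
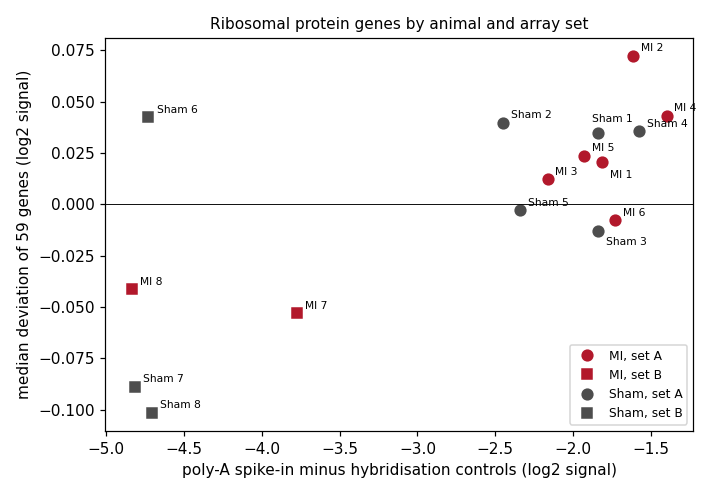
Median deviation of the 59 ribosomal protein genes above background from their own means (vertical axis, log2) against the poly-A spike-in contrast (horizontal axis, log2), 1 point per animal. The 5 arrays of set B (squares, left) run from -0.102 to 0.042, and the 11 of set A (circles, right) from -0.013 to 0.072 with MI and Sham mixed.

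After the means of the 4 groups of condition and sex were taken off, the ribosomal protein genes varied together from array to array. The Pearson correlation between 2 genes had a median of 0.35 over 1711 pairs of the 59 genes above background, 36.5% of pairs were above 0.5, and 27.5% were below 0. Pairs of the 263 other probe sets above 12, with 4 further probe sets of these genes among them, had a median of 0.036 (34453 pairs). With the array set also taken off, the medians were 0.33 and 0.037. All these pairs share the same 16 arrays and their normalization, so they are descriptions without a test. Before the set was taken off, the most alike were RPL35 and RPL9 (0.97) and RPS24 and RPS29 (0.96), and the least alike RPL27A and RPL3 (-0.77). With the set taken off, these pairs had 0.87, 0.70 and -0.55.

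Each gene was also set against the mean of the other genes. RPL9, RPL13A and RPL10A followed that mean most closely (0.91, 0.91 and 0.90). A total of 11 genes ran against it, among them RPL27A (-0.52), RPS28 (-0.51) and RPL13 (-0.34). With the array set taken off, RPL13 turned to 0.75 and RPS21 to 0.79, whereas RPL37 stayed negative at -0.39. RPL23 had 0.61, and 0.69 with the set taken off. Outside these genes, the one most like their mean among 5866 genes compared over the 16 arrays was NDUFS5, a subunit of mitochondrial complex I (0.97, and 0.94 with the set taken off), with a difference between MI and Sham of 0.04 (adjusted p = 0.680). The next were PROM1, GTF2H5, C1H15orf57, ERCC8, CLNS1A, TLR1, ZC3H10, TEX30 and SAR1B, with correlations from 0.88 to 0.91.

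The further probe sets of a gene did not always give the same difference. Of the 32 further probe sets of these genes, 25 were above background and only 4 had a mean above 12. These 4 belong to RPL27, RPL31 and RPS18 (2), and they differed between MI and Sham by -0.03 to 0.0050. The probe sets that represent these genes differed by 0.028 for RPL27, -0.01 for RPL31 and 0.10 for RPS18, and none of the 7 passed. The 28 dimmer ones ran from -0.68 to 0.34, with 12 positive and 16 negative and a median of -0.09. Of the 32, 2 passed (6.25%), both lower in MI, against 10.5% of all probe sets in either direction and 5.14% lower in MI.

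One of them belongs to RPL13A, a large subunit protein that in human cells also takes part in silencing inflammatory messages after interferon gamma. This probe set had 5.19, 5.33 and 5.54 in MI animals and 5.65, 5.995 and 6.29 in Sham animals. The groups did not overlap, and the difference was -0.68 (SE 0.09, adjusted p = 0.000291). It passed in every alternative in which it could be tested, with adjusted p up to 0.00491. The probe set that represents RPL13A had 13.27, 13.49 and 13.57 in MI animals and 13.25, 13.47 and 13.63 in Sham animals, with a difference of 0.0028 (SE 0.07, adjusted p = 0.987). The remaining probe set of RPL13A, with a mean of 5.93, differed by -0.31 (SE 0.15, adjusted p = 0.233). The probe sets of RPL13A thus disagree, and which transcript the dim ones detect was not tested, since no probe sequences were used here. RPL13A lies on chromosome 6 at 54551772 to 54568752.

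The other belongs to RPS28, a small subunit protein, and had 4.35, 4.49 and 4.93 in MI animals and 4.71, 4.95 and 5.18 in Sham animals. Its difference of -0.35 passed (SE 0.10, adjusted p = 0.0323), but both group means were below background, so that no fold is drawn from it, and the call was lost on leaving out any 1 of 9 animals (adjusted p up to 0.0661). Over the 28 alternatives that could test it, the call was lost in 11 (limma, adjusted p up to 0.0832). The probe set that represents RPS28 differed by -0.05 (SE 0.06, adjusted p = 0.687).

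**Figure D4:**
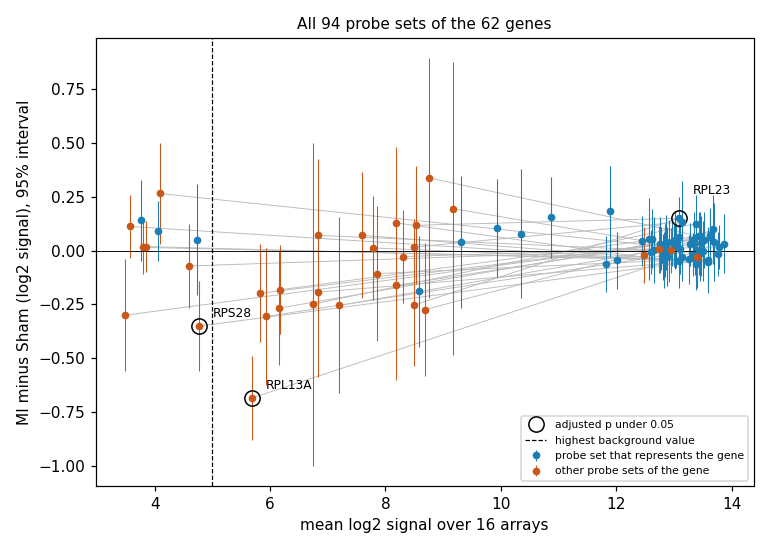
Difference between MI and Sham (vertical axis, log2, with 95% intervals) against mean signal over 16 arrays (horizontal axis, log2) for all 94 probe sets of the 62 genes, with grey lines from each further probe set to the one that represents its gene. Differences narrow towards the right, and of the 3 ringed probe sets only that of RPL23 is bright; the dashed line marks the highest background value, 4.99.

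The wider translation machinery was compared through gene lists. Beside the 1 of 62 cytosolic genes that rose, with a median difference of 0.024, stood 58 measured proteins of the mitochondrial ribosome, which translates the messages of the mitochondrial genome. Of these 58, 2 rose in MI animals and none fell (3.45%), 8 had an unadjusted p under 0.05, and the median difference was -0.0031. Over all 6765 genes 7.63% passed and 18.1% had an unadjusted p under 0.05. MRPS23 had 5.30, 5.42 and 5.64 in MI animals and 4.999, 5.20 and 5.35 in Sham animals, a difference of 0.27 (SE 0.06, adjusted p = 0.0154). MRPL36 had 8.84, 8.92 and 9.03 in MI animals and 8.39, 8.68 and 8.997 in Sham animals, a difference of 0.23 (SE 0.07, adjusted p = 0.0471). For MRPS23 the groups overlapped little and the call held without any single animal. Its signal lay close to the highest background value, 4.99. For MRPL36 the call was lost on leaving out any 1 of 14 animals, with adjusted p up to 0.0925. Over all 31 alternatives, a stricter threshold among them, it was lost in 21 (limma, adjusted p up to 0.109).

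Of 32 measured initiation factors, 1 rose and 1 fell (6.25%), and 3 had an unadjusted p under 0.05. EIF4E, which binds the cap of messages, had 7.44, 7.83 and 8.09 in MI animals and 7.06, 7.37 and 7.73 in Sham animals, and rose by 0.39 (SE 0.11, adjusted p = 0.0287). EIF2B4, a subunit of the exchange factor that recycles eIF2, had 8.29, 8.39 and 8.68 in MI animals and 8.56, 8.68 and 8.87 in Sham animals, a difference of -0.25 (SE 0.07, adjusted p = 0.0356). For both genes all 8 MI animals lay on one side of the Sham mean. The call of EIF4E was lost on leaving out any 1 of 8 animals and that of EIF2B4 on leaving out any 1 of 11, with adjusted p up to 0.0616 and 0.0731. Over all 31 alternatives these calls were lost in 10 and 17 (limma, adjusted p up to 0.0616 and 0.0846).

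Of 31 measured genes of ribosome biogenesis, 1 rose and none fell (3.23%, against 7.63% of all genes), and 2 had an unadjusted p under 0.05 (18.1% of all genes had one). RIOK1, a kinase of late small subunit maturation, had 6.65, 6.72 and 7.12 in MI animals and 6.33, 6.52 and 6.66 in Sham animals, a difference of 0.28 (SE 0.08, adjusted p = 0.0290). Only 2 Sham animals, Sham 5 and Sham 6, lay above the lowest MI animal, and the call was lost on leaving out any 1 of 7 animals (adjusted p up to 0.0607). Over all 31 alternatives it was lost in 11 (limma, adjusted p up to 0.0806). None of 7 elongation and termination factors passed (limma, 1 with an unadjusted p under 0.05). EEF1G, a subunit of the factor that recharges eEF1A, had the lowest p of that list, with a difference of 0.10 (SE 0.04, adjusted p = 0.185). None of 13 genes of growth signalling to the ribosome passed either (limma, 2 with an unadjusted p under 0.05), and RPS6KA3, a kinase that phosphorylates RPS6, had the lowest p of that list (0.22, SE 0.09, adjusted p = 0.154). FAU and RACK1, proteins of the small subunit that the symbol rule does not reach, differed by -0.01 and 0.0016, and RPL36AL by 0.05, and none passed.

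**Figure D5:**
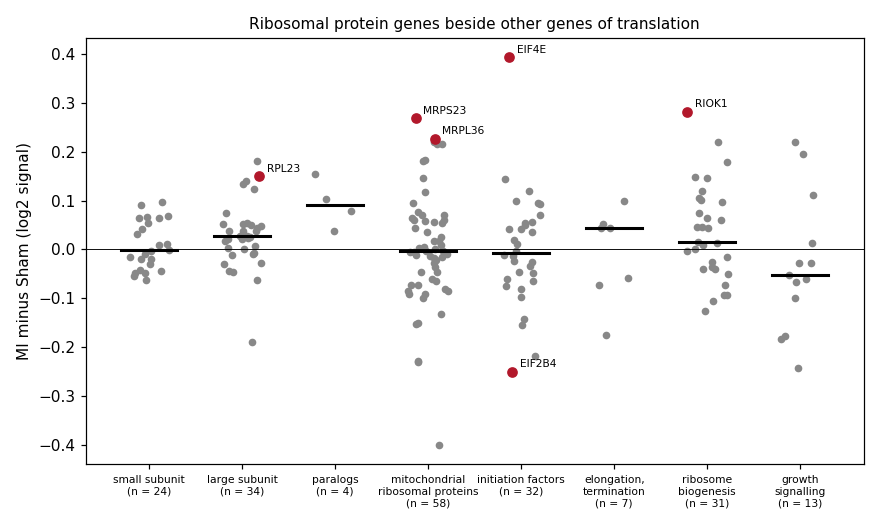
Difference between MI and Sham (vertical axis, log2) for each gene of the cytosolic ribosomal protein groups and of 5 other lists of translation genes, 1 point per gene with its median as a bar. Red points with names passed the test: RPL23 among the cytosolic ribosomal proteins, MRPS23 and MRPL36 of the mitochondrial ribosome, EIF4E and EIF2B4 of initiation, and RIOK1 of biogenesis.

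Markers of the cell types of the ventricle were read beside these results. In bulk tissue, fewer cells of a type and less RNA per cell cannot be told apart. None of 9 cardiomyocyte, 7 fibroblast, 9 endothelial or 6 smooth muscle markers passed (limma, 1 endothelial marker and no other with an unadjusted p under 0.05). The cardiomyocyte list averaged 14.06 to 14.18 in MI animals and 14.09 to 14.17 in Sham animals, and the fibroblast list 10.14 to 10.77 in MI animals and 10.09 to 11.47 in Sham animals (mean log2 signal of the list). Other lists held markers that passed: 1 of 7 macrophage markers rose, 4 of 11 lymphocyte markers rose and 1 fell, 2 of 4 erythroid markers rose, and 2 of 7 adipocyte markers rose and 1 fell. These shares were 14.3%, 45.5%, 50% and 42.9%, against 7.63% of all genes. The lymphocyte list averaged 5.16 to 5.79 in MI animals and 5.28 to 5.81 in Sham animals, with 8 of its 11 markers above background. The erythroid list averaged 6.41 to 7.82 in MI animals and 6.26 to 6.78 in Sham animals. The macrophage list averaged 7.23 to 7.73 in MI animals and 7.19 to 7.58 in Sham animals, and the adipocyte list 7.13 to 7.36 in MI animals and 6.90 to 7.19 in Sham animals. Their part in the difference of RPL23 was not tested.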

How the data were processed

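Log2 signals of 24123 probe sets on 16 arrays, 1 per animal, were used as deposited by the authors. All arrays shared the same median (6.24), so the values had been normalized between arrays. Which method and software did this is not given in the sources used here. Control probe sets (124) were left out, which left 23999. Gene symbols came from the platform annotation (10069 probe sets with 1 symbol, 198 with several and 13732 with none) and positions from RefSeq.

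The test was limma 3.58.1 (R 4.3.3), with 1 coefficient for each of the 4 groups of condition and sex (12 residual degrees of freedom). Tests were two-sided, p-values were Benjamini-Hochberg adjusted over 23999 probe sets, and an adjusted p under 0.05 passed. P-values measure the spread between these animals. Arrays give no counts, so their number limits precision. The fit was tested on simulated data. Background was the highest value of 23 control probe sets without target. The mitochondrial list was taken by symbol after the files were seen.

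The genes and lists were chosen with earlier results of these data known. Named were genes that passed, the 10 lowest p between MI and Sham, the 4 lowest for the interaction and for sex, the 3 highest and 3 lowest levels, the stalk, 5S and paralog genes, RPSA, RPS6, RPS27A, RPL3 and RPS4X, the genes of other lists that passed or had the lowest p, and the 10 genes most like the mean. RPL13A and RPS28, whose further probe sets passed, RPS18, RPS24, RPL35, RPL9, RPL10A, RPS21, RPL27A and RPL31 as extremes, and the genes FAU, RACK1 and RPL36AL were named after their values were seen. Alternatives changed the model, normalization, filter, threshold, probe set, array set and animals.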

Additional observations from a re-analysis of the deposited data

Results flagged for a closer look

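A single animal stood apart from the other 7 of its group in 3 of the 76 group values tested, by the size of its gap to the nearest other animal against the whole range of the group. Chance gives about 1 in 20 such values. RPL30 was 4.35 in MI 5, against 3.68 to 3.95 in the other MI animals, all below background. RPLP0, the base of the stalk, was 13.72 in MI 8, against 13.78 to 13.83 in the other MI animals. RPS27A, the ubiquitin fusion, was 13.65 in MI 2, against 13.51 to 13.57 in the other MI animals. In none of these genes did the difference between MI and Sham pass, with or without the animal.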

How the results depend on the processing

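A total of 44 results were recomputed under 31 alternatives, and 30 of the 37 named genes and probe sets stayed on the same side of the threshold in every alternative that could test them. Of these 30 only the dim probe set of RPL13A passed, and for 15 of the 30 the sign of the difference was not the same in all alternatives. The number of ribosomal protein genes that passed between MI and Sham (1) was 0 with quantile normalization, on set A alone, without MI 7 with the array set as a block (with sex in the model and, added after the data were seen, without it), and at an adjusted p under 0.01. It was also 0 when only the 16000 brightest probe sets or those above background were tested, where fewer probe sets passed in all (654 and 993, against 2527, and 1123 at the stricter threshold). Without single animals it ran from 0 to 1. With the dimmest probe set of each gene it was 2 (RPL13A and RPS28), RPL23 then turning to -0.25 (adjusted p = 0.271), and with the probe sets of each gene averaged it was 1, RPL13A. Over all alternatives the adjusted p of RPL23 ran from 0.0244 to 0.982, and the cause of its losses was not tested. The median difference over the 62 genes stayed between 0.0025 and 0.035, and no gene passed for the interaction or the sexes in any alternative.

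The correlation of deviations between animals of the same replicate number ran from -0.22 to 0.50, and 5 of 8 were above 0.1. Without a comparison to animals of different numbers, these values cannot decide whether the numbers pair the animals. Animals of the same number did not always share a sex label (MI 2 female, Sham 2 male). With the replicate block, 0 ribosomal protein genes passed, 2395 probe sets passed between MI and Sham, and 0 between the sexes (14 without it).

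The number of animals limits differences under about 0.125 (the median half-width of the intervals), and signal near background leaves RPL26, RPL30 and RPS15A unmeasured.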

Other observations

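Ribosomal RNA, the other component of the ribosome, is represented on the array by 5 control probe sets that the tests above leave out. The 5S probe set had 4.502, 5.03 and 5.60 (lowest, median, highest log2 signal) in MI animals and 5.15, 5.31 and 5.91 in Sham animals, a difference of -0.34 (two-sided exact permutation test over 12870 splits, p = 0.0528, adjusted over the 5 probe sets p = 0.131). The 2 probe sets of 18S differed by -0.39 (exact p = 0.0541, adjusted p = 0.131) and 0.08 (exact p = 0.678), and the 2 of 28S by -0.25 (exact p = 0.0785, adjusted p = 0.131) and 0.19 (exact p = 0.652). None passed, and the probe sets of the same RNA differed in direction. The 5S signal lay close to the highest background value, 4.99, with means of 5.07 in MI animals and 5.41 in Sham animals. MI 2, MI 7 and MI 8 lay below that background value, and all 8 Sham animals lay above it. How closely these control probe sets follow the amount of ribosomal RNA was not tested.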
